A study of Mus musculus with 12 samples.

Results

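The genes described here encode the hyaluronan-bound matrix of the brain: the link proteins Hapln1, Hapln2 and Hapln4, the lecticans Bcan, Vcan, Ncan and Acan, the tenascins Tnr and Tnc, and the receptor phosphatase Ptprz1. Members were taken by symbol, with every probe that the platform annotation gives them, which came to 10 of 19031 named genes and 25 of 45135 probes on the array. Of these, 22 probes passed the detection filter (detection p below 0.05 on at least 3 of 12 arrays), and each of the 10 genes kept at least 1 probe. The probes left out were 1 of 6 for Vcan and 2 of 7 for Tnc.

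The data are 12 Illumina bead arrays of brain glioma from C57BL/6 mice, 6 Tlx-intact and 6 Tlx-knockout. Every mouse carried floxed Tlx (Tlx f/f), a Nestin-driven Tva (N-Tva), which is the receptor that lets an avian retrovirus enter cells. The protocol names the line Nestin-CreERT2, whereas the genotype labels raise the number after CreERT by 1 from sample to sample, so the Cre version of each mouse rests on the protocol and the groups on the label of intact or knockout Tlx. Intact mice were littermates without the Cre transgene (CRE-) and knockout mice carried it (CRE+), so the groups differ in Cre as well as in Tlx. Tamoxifen, which activates this Cre, was injected 2.5 weeks after tumours were started, per the labels' protocols. The Nestin promoter confines Cre to cells that use it, and excised tumours also hold host cells. Mice were taken when neurological symptoms were severe, at 38 to 51 days in the intact group and 48 to 79 days in the knockout group. Each array carries its own sample number, and nothing in the labels pairs the arrays of the groups.

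Hyaluronan is a long sugar polymer made at the cell surface. Lecticans are chondroitin sulphate proteoglycans that bind it through 1 end, link proteins clamp that contact, and tenascins tie the other ends of several lecticans together. In adult brain this lattice forms perineuronal nets around neurons and the matrix of nodes of Ranvier, while astrocytes, oligodendrocyte progenitors and gliomas are known to make much of the brevican, neurocan and Ptprz1.

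The arrays were alike in depth, with median signals of 134.5 to 161.3 intensity units and 50.8% to 54.8% of their probes detected. The probe of Nr2e1, the current name of Tlx, averaged 6.14 ± 0.44 log2 units over intact arrays and 5.55 ± 0.54 over knockout arrays (SD, n = 6 each), with overlapping values (difference -0.58, SE 0.26, limma adjusted p = 0.405). The sources used here do not place it inside or outside the deleted part, so it is no check of the labels. Progenitor markers were detected on all 12 arrays for 9 of 9 measured genes and astrocyte markers for 10 of 10. In the signal table the first 6 columns hold 5 knockout and 1 intact array and the last 6 hold 1 knockout and 5 intact, so column position and group nearly coincide. Sample numbers in the labels fall into 4 runs, of which the first holds 2 intact and 3 knockout arrays and each of the others holds 1 group.

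On the chromosomes each link protein gene lies beside a lectican gene. Per the reference table of GRCm38.p6, no other protein-coding gene lies between Hapln1 and Vcan on chromosome 13, between Hapln2 and Bcan on chromosome 3, or between Hapln4 and Ncan on chromosome 8. The same holds for Acan and Hapln3, the link protein gene outside the set, on chromosome 7. Ptprz1 is on chromosome 6, Tnc on 4 and Tnr on 1. The RefSeq promoter table of this build matched 9 of the 10 members, with 10 windows of 300 bases running from 250 before the transcript start to 50 after it (Hapln4 has no entry, Tnc has 2). The windows of 2 neighbouring pairs are shown because the link protein of each pair had the lower knockout mean while its lectican did not. Hapln1 is at chr13:89540386-89540685 on the plus strand, Vcan at chr13:89742463-89742762 on the minus strand, Hapln2 at chr3:88027462-88027761 on the minus strand and Bcan at chr3:88000307-88000606 on the minus strand, each printed 5′ to 3′ along its gene, with matches of the motifs below in capitals.
Hapln1: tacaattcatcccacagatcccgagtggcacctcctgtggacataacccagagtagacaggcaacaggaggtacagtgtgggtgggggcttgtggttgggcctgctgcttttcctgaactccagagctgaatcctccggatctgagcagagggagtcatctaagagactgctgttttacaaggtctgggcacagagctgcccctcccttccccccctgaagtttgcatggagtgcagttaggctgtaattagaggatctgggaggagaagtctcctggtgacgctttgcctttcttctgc
Vcan: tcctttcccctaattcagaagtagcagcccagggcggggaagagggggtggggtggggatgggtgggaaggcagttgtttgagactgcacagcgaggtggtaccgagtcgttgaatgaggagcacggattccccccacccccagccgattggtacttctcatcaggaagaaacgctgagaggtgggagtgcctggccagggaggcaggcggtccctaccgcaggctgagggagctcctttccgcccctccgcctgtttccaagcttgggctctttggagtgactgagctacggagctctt
Hapln2: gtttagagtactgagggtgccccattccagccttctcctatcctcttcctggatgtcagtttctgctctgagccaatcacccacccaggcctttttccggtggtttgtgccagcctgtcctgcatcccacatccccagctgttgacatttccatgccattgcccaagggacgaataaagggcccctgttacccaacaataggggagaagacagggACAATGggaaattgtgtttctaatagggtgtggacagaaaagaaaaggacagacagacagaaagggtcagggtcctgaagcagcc
Bcan: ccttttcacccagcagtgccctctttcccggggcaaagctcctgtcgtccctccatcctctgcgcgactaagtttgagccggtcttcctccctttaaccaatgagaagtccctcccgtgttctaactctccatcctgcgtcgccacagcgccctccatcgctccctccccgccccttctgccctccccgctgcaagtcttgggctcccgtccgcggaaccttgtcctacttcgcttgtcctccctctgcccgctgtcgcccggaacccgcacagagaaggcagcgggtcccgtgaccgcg

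The following short motifs, 3 in all, were searched on both strands of the 10 windows. AAGTCA, the core of the site to which Tlx is known to bind, occurred in 0 of the 10 windows and in 15.1% of the 32851 promoters of the table. ACAATG, a core of SOX-family sites, matched once, on the forward strand of Hapln2 from base 216 of the window, against 12.6% of all promoters. ACAAAG, another such core, matched once, on the reverse strand of Tnr from base 31, against 18.7% of all promoters. These are letter matches in short windows, and they say nothing of binding. The lectican windows were richer in CpG pairs than those of their link protein neighbours, with 24 in Bcan against 2 in Hapln2 and 12 in Vcan against 3 in Hapln1, where the median promoter had 7. GC content was 64.0% in Bcan, 52.0% in Hapln2, 61% in Vcan and 54.3% in Hapln1 (median of all promoters 52.7%).

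Knockout and intact tumours were compared with limma across all 14155 genes measured, and 0 of the 10 members passed an adjusted p of 0.05 in either direction, against a background of 0.00706% higher and 0.00706% lower. At an unadjusted p below 0.05, 3 of 10 members were on the lower side, against 5.72% of all genes, and 0 of 10 on the higher side, against 6.22%. The 3 are the link proteins, all of the set. Hapln1 was kept only through its intact arrays, where it is high, so this count is a description and nothing is read from its share. Of the other members, 7 of 7 had differences between 0.03 and 0.23, each within its own standard error or little above it. The median difference over the 10 members was 0.06, beside -0.0026 over all genes. Over the link proteins alone it was -0.99, over the lecticans 0.16 and over the tenascins 0.13.

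Hapln1, the link protein best known from perineuronal nets and cartilage, read close to background. Its probe (ILMN_2753342) had a lowest, median and highest value of 4.65, 4.81 and 5.27 log2 units in intact tumours, and of 4.22, 4.31 and 4.42 in knockout tumours. Every knockout array lay below every intact array (0.219% of all genes were separated on the lower side and 0.431% on the higher side). The probe passed the detection filter through the intact group alone and its knockout values were at background, so nothing is read from those shares. The means were 4.87 ± 0.22 and 4.32 ± 0.08 (SD, n = 6 each), and Hapln1 differed by -0.56 (SE 0.13, limma adjusted p = 0.193). This gene did not pass the adjusted threshold. The probe was detected on 4 of 6 intact and 0 of 6 knockout arrays. Knockout levels are therefore only upper bounds. With each knockout array set at the higher of its own value and its dimmest detected probe, the mean was 1.22-fold lower in knockout tumours. Intact arrays that did not detect the probe enter as measured, so 1.22 is no strict minimum. Raw signals ran from 116.7 to 158 intensity units. The spread within groups was small, with a residual SD of 0.16 log2 units that 95.5% of genes exceeded. As the probe read near background, nothing is read from that rank. In bulk tissue such as this, fewer cells of a type and less RNA per cell cannot be told apart.

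Hapln2, the link protein of nodes of Ranvier in white matter, had the widest mean difference of the 10 genes. Its probe (ILMN_2666080) had a lowest, median and highest value of 5.72, 6.86 and 9.11 log2 units on intact arrays and of 4.30, 5.24 and 7.03 in knockout tumours. The groups overlapped: intact replicates 4 and 6, at 8.77 and 9.11, stood above the rest, knockout replicate 6 reached 7.03, and knockout replicate 5, at 4.30, was the array that did not detect the probe. The means of 7.21 ± 1.44 and 5.46 ± 0.95 (SD, n = 6 each) correspond to a 3.37-fold lower mean level in knockout tumours (log2 -1.75, SE 0.61, limma adjusted p = 0.284). The variation between animals was large, with a residual SD of 1.22 that only 1.24% of genes exceeded.

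Hapln4, a brain link protein of perineuronal nets, was detected on all 12 arrays. Its probe (ILMN_2589915) had a lowest, median and highest value of 7.27, 8.19 and 9.98 log2 units on intact arrays and of 6.95, 7.51 and 7.62 in knockout tumours. Intact replicate 1, at 7.27, lay within the knockout range, while the other 5 intact arrays lay above it. The means were 8.42 ± 0.99 and 7.43 ± 0.25 (SD, n = 6 each), a 1.98-fold lower mean level in knockout tumours (log2 -0.99, SE 0.37, limma adjusted p = 0.327). The SD was thus wider among intact than among knockout tumours, and intact replicate 6 was the highest array for all of Hapln1, Hapln2 and Hapln4.

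**Figure D1:**
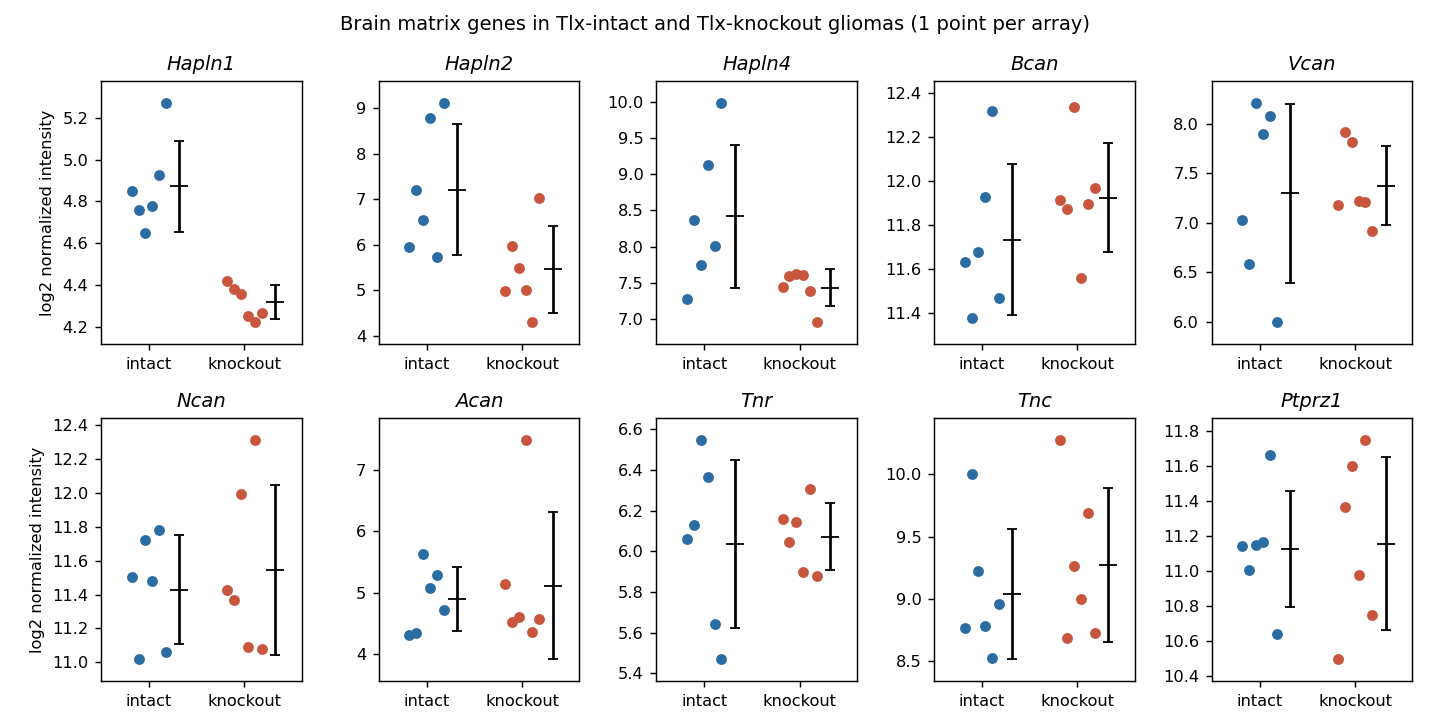
Log2 normalized intensity of the representative probe of each of the 10 genes on 6 intact (blue) and 6 knockout (red) arrays, 1 point per array, with the mean and SD beside each group in black and a separate vertical scale for each gene. The Hapln1 groups do not overlap, those of the other 9 genes do, and knockout replicate 4 stands alone at 7.49 for Acan.

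The sign of the link protein differences was the same within the parts of the design that hold both groups. For Hapln1 that sign was fixed in advance, because its groups do not overlap. The parts are subsets of the same arrays, so their values are a description and no further support. Within the first 6 columns, where 5 knockout arrays face 1 intact array, the differences were -0.35 for Hapln1, -0.98 for Hapln2 and -0.31 for Hapln4. Within the last 6 columns, where 1 knockout array faces 5 intact, they were -0.50, -2.37 and -1.12. With column position as a block, limma gave -0.42 (SE 0.17, adjusted p = 0.589), -1.68 (SE 0.84, adjusted p = 0.691) and -0.71 (SE 0.50, adjusted p = 0.823) for Hapln1, Hapln2 and Hapln4. With the number runs as a block, which leaves only the 2 intact and 3 knockout arrays of the first run to compare, Hapln1 was at -0.51 (SE 0.21), Hapln2 at -0.80 (SE 0.95) and Hapln4 at -0.51 (SE 0.49), each with an adjusted p of 0.999. Without background correction Hapln1 was at -0.18 and Hapln2 at -0.81.

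Markers of neurons and mature oligodendrocytes were lower on average in knockout tumours. Of the neuron markers 10 of 10 measured had a difference below 0, and their list mean (the average, over genes, of log2 values centred on 0 for every gene) had a difference of -1.01 (SE 0.51, two-sided exact permutation p = 0.0823). Their summed intensity ran from 3182 to 26107 units in intact and from 2738 to 14801 in knockout tumours. Of the mature oligodendrocyte markers 9 of 9 were below 0, with a list mean difference of -0.50 (SE 0.33, exact permutation p = 0.156) and sums of 27754 to 67325 in intact and 19564 to 63563 in knockout tumours. Of the astrocyte markers 9 of 10 were below 0, with a list mean difference of -0.56 (SE 0.34, exact permutation p = 0.141) and sums of 27865 to 49307 and 14738 to 42087. Progenitor markers went the other way, with 8 of 9 above 0, a list mean difference of 0.24 (SE 0.17, exact permutation p = 0.188) and sums of 46346 to 66940 in intact and 56184 to 72335 in knockout tumours. No marker was at 0, and 8 of 10 neuron, 7 of 9 oligodendrocyte and 10 of 10 astrocyte markers were detected on all 12 arrays. These counts take each gene's brightest probe. Most other probes of neuron and mature oligodendrocyte markers were below 0 as well, such as Camk2a at -1.97 (ILMN_2677393) and Rbfox3 at -1.75 (ILMN_3110132). The exceptions were Mbp at 0.25 on ILMN_3011353, beside -1.08 on ILMN_3081854, and Gad1 at 0.05 on ILMN_2573826, beside -0.87 on ILMN_2621743. Other astrocyte probes were all below 0. Other progenitor probes went both ways, with Nkx2-2 at 0.59 (ILMN_3129849) and Sox8 at -0.41 (ILMN_1259039). Within the first 6 columns the 5 knockout arrays lay 0.53 above the intact one in the neuron list mean, where their link protein means lay below it, and within the last 6 it differed by -0.80. For mature oligodendrocytes these values were -0.0044 and 0.36, and for astrocytes 0.05 and -0.31. The part of these cell types in the link protein differences was not tested.

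**Figure D2:**
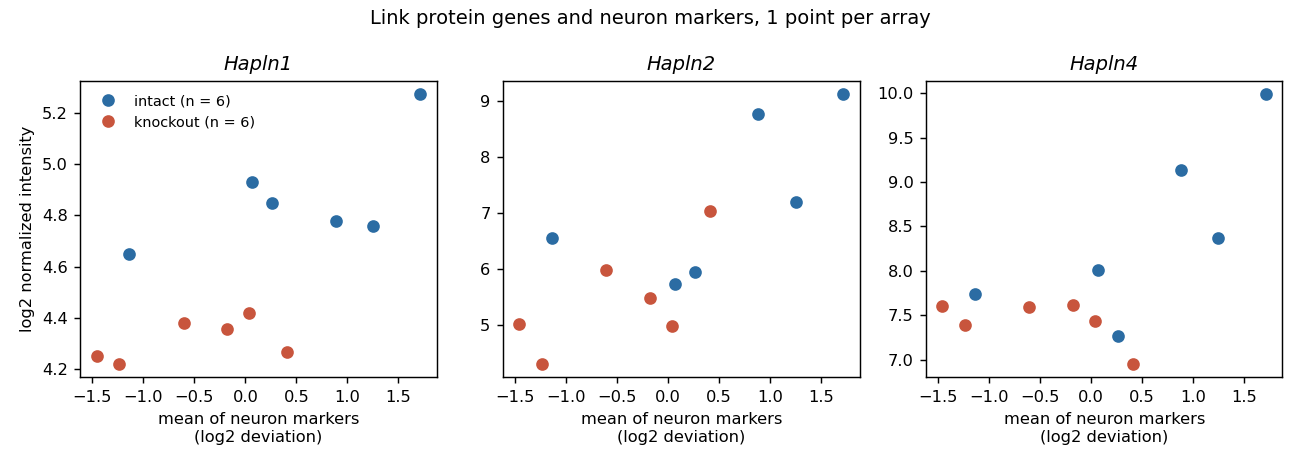
Log2 normalized intensity of Hapln1, Hapln2 and Hapln4 (vertical axes) against the mean log2 deviation of 10 neuron markers (horizontal axes), 1 point per array, intact in blue and knockout in red. The Hapln1 groups do not overlap and its knockout values are at background, while intact replicates 4 and 6 lead Hapln2 and Hapln4.

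The 4 lecticans had adjusted p-values of 0.700 to 0.952. Bcan (brevican), the most brain-restricted lectican, had a lowest, median and highest value of 11.38, 11.66 and 12.32 log2 units on intact arrays and of 11.56, 11.90 and 12.34 in knockout tumours. The ranges nearly coincide, and the means of 11.73 ± 0.34 and 11.93 ± 0.25 (SD, n = 6 each) differed by 0.19 (SE 0.18, limma adjusted p = 0.700). A second Bcan probe (ILMN_2636745) gave the same difference of 0.19, and the third (ILMN_2995619), detected on 3 of 6 intact and 4 of 6 knockout arrays, gave 0.02.

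Vcan (versican), a lectican of migrating and developing cells, had a lowest, median and highest value of 6.00, 7.46 and 8.21 in intact and of 6.92, 7.21 and 7.92 in knockout tumours. The intact arrays spread over more than the whole knockout range, and the difference was 0.08 (SE 0.36, limma adjusted p = 0.952). The other 4 measured Vcan probes had wider differences of the same sign, 0.28 (ILMN_1247540), 0.54 (ILMN_2555157), 0.69 (ILMN_2655336) and 0.67 (ILMN_2669627), with adjusted p over all probes between 0.493 and 0.755. The mean of the 5 probes differed by 0.45. Intact replicate 6 was the lowest array on 3 of the 5 probes (ILMN_2555157, ILMN_2655336 and ILMN_2865704), and without it the gene's difference was -0.19. The Vcan difference was -0.79 in the first 6 columns and 0.06 in the last 6.

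Ncan (neurocan), a lectican of the nervous system, had a lowest, median and highest value of 11.02, 11.49 and 11.78 in intact and of 11.08, 11.40 and 12.32 in knockout tumours, from a single probe (ILMN_2993652). Knockout replicates 5 and 3 were the highest arrays, and the medians nearly coincided. The difference was 0.12 (SE 0.23, limma adjusted p = 0.869).

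Acan (aggrecan), the lectican that marks mature perineuronal nets, was near background. Its brighter probe (ILMN_2645654) was detected on 4 of 6 intact and 2 of 6 knockout arrays, with a lowest, median and highest value of 4.32, 4.90 and 5.63 in intact and of 4.36, 4.59 and 7.49 in knockout tumours. Knockout replicate 4 held the value of 7.49, and the other 5 knockout arrays lay within the intact range. Its second probe (ILMN_2639818) was also highest in knockout replicate 4, at 6.6, with the next knockout array at 4.99. The difference of 0.22 (SE 0.46, limma adjusted p = 0.882) became -0.26 without that array. The neuron list mean described above was lowest of all 12 arrays in knockout replicate 4, at -1.46. The Acan difference was -0.52 in the first 6 columns and 0.39 in the last 6.

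Among the tenascins, Tnr (tenascin-R), which cross-links lecticans in nets and at nodes, had a lowest, median and highest value of 5.47, 6.09 and 6.55 in intact and of 5.88, 6.10 and 6.30 in knockout tumours. Knockout arrays lay inside the intact range, and the difference was 0.04 (SE 0.18, limma adjusted p = 0.958). Tnc (tenascin-C), a tenascin of stem-cell niches and gliomas, had a lowest, median and highest value of 8.52, 8.87 and 10.0006 in intact and of 8.68, 9.13 and 10.28 in knockout tumours. Intact replicate 2 and knockout replicate 1 were the highest arrays of their groups, and the difference was 0.23 (SE 0.30, limma adjusted p = 0.792). It was 0.031 without knockout replicate 1 and 0.43 without intact replicate 2.

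The 5 measured Tnc probes did not share a sign. ILMN_2463181 and ILMN_2463180, the brightest, gave 0.23 and 0.18 with the same 2 arrays highest, ILMN_1251943, detected on only 3 arrays, gave 0.13, and ILMN_1236724 and ILMN_2485085 gave -0.20 and -0.31. Ptprz1, whose secreted form phosphacan is itself a matrix proteoglycan, had a lowest, median and highest value of 10.64, 11.14 and 11.66 in intact and of 10.50, 11.17 and 11.75 in knockout tumours. The ranges nearly coincide, and the difference was 0.03 (SE 0.23, limma adjusted p = 0.975) and 0.18 on its second probe (ILMN_1257842). Within the first and the last 6 columns the differences were -0.49 and 0.23 for Tnr, -0.15 and 1.27 for Tnc, and 0.14 and -0.62 for Ptprz1, each resting on 1 array of one of the groups.

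**Figure D3:**
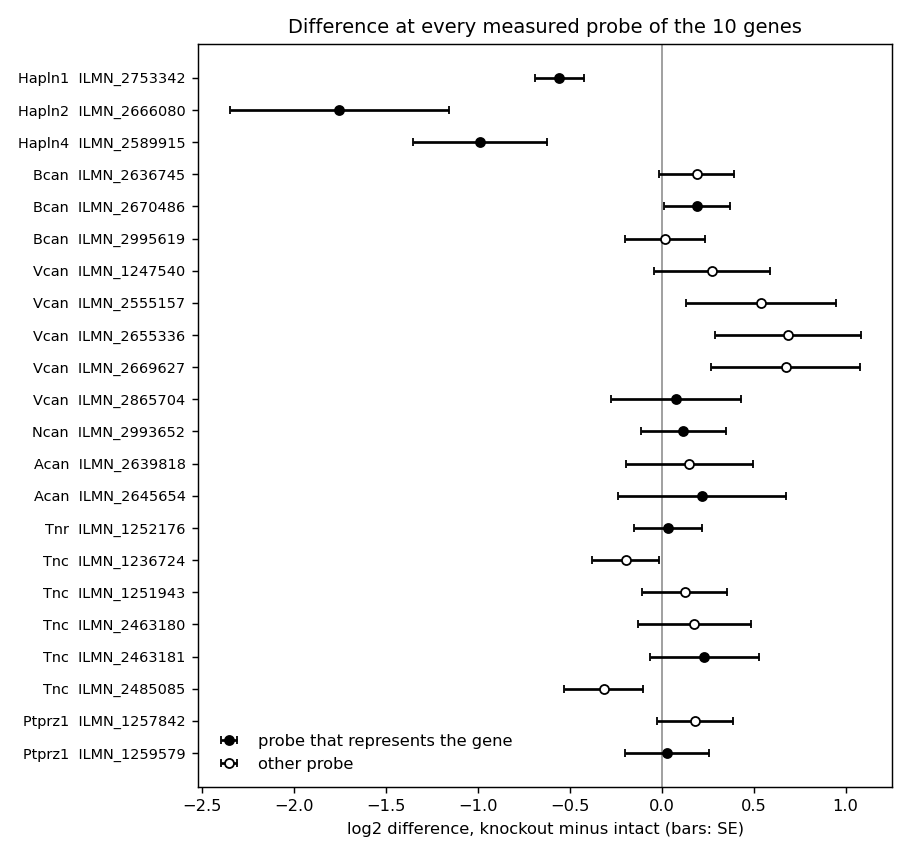
Log2 difference, knockout minus intact, at each of the 22 measured probes of the 10 genes, with bars of 1 standard error, filled for the probe that represents its gene and open for the others. The link protein probes lie at -0.56, -1.75 and -0.99, the Vcan probes between 0.08 and 0.69, and the Tnc probes on both sides of 0.

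Over the 28002 measured probes, 0 of the 22 member probes passed the adjusted threshold, against 0.00357% of probes higher and 0.00714% lower. At an unadjusted p below 0.05, 3 of 22, with Hapln1 among them, were on the lower side (5.82% of all probes) and 0 on the higher side (6.98%). The 3 probes that failed the detection filter (Vcan ILMN_1243423, Tnc ILMN_2454497 and ILMN_2567596) were detected on 1, 2 and 2 intact arrays and on 0 knockout arrays. No fold is given for these probes, since most of their intact values were undetected as well.

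Members were next compared across the 12 tumours. Arrays were permuted over both groups together, here and for the marker lists below. These p-values therefore also take in any shift between groups. Hapln1 was kept through its intact arrays alone and was undetected on every knockout array. Nothing is read from its correlations or their p-values, here or below. Of 45 pairs, 0 passed Benjamini-Hochberg adjustment of a two-sided permutation test at 0.05, and 7 had an unadjusted p below 0.05 on Pearson's r. Hapln2 and Hapln4 had r = 0.79 (permutation p = 0.00325, adjusted p = 0.0508) and rho = 0.56 (permutation p = 0.0623), and r was 0.23 without intact replicates 4 and 6. Within groups the relation was unlike, with r = 0.93 over intact and -0.58 over knockout arrays. Hapln1 and Hapln4 had r = 0.77 (permutation p = 0.00339, adjusted p = 0.0508) and rho = 0.60 (permutation p = 0.0428). Their r was 0.54 without the same 2 arrays and 0.67 over intact arrays. In the first and last 6 columns r was -0.31 and 0.94 for the first pair and 0.57 and 0.70 for the second.

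For Ncan and Ptprz1, both known from glial progenitors and gliomas, no test within a group was made and the pair missed the adjusted threshold. Their r was 0.78 (permutation p = 0.0028, adjusted p = 0.0508) and their rho 0.76 (permutation p = 0.00589, adjusted p = 0.265). It was 0.84 without knockout replicates 1 and 5, 0.80 over intact, 0.78 over knockout, 0.90 over the first 6 columns and 0.65 over the last 6. Between link proteins and the lecticans beside them on the chromosome, r was -0.29 for Hapln1 and Vcan (permutation p = 0.365, rho -0.08 with permutation p = 0.803), -0.34 for Hapln2 and Bcan (permutation p = 0.287, rho -0.30 with permutation p = 0.343) and -0.29 for Hapln4 and Ncan (permutation p = 0.363, rho -0.20 with permutation p = 0.529), each with an adjusted p of 0.670. Leaving out the 2 arrays farthest from the median gave 0.16, -0.24 and -0.18. In the first and last 6 columns r was 0.86 and -0.40 for Hapln1 and Vcan, 0.04 and -0.43 for Hapln2 and Bcan, and 0.29 and -0.51 for Hapln4 and Ncan.

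Of 40 relations between a member and the mean of a neural marker list, 0 passed adjustment and 13 had an unadjusted p below 0.05. Hapln1 and neuron markers had r = 0.71 (permutation p = 0.0106, adjusted p = 0.0848), with 0.65 over intact arrays. That r was 0.47 without intact replicate 6 and knockout replicate 4, -0.13 over the first 6 columns and 0.63 over the last 6. As the knockout values of Hapln1 were at background, nothing is read from this relation. Hapln2 went with neuron markers at r = 0.78 (permutation p = 0.00262, adjusted p = 0.0777, rho 0.77 with permutation p = 0.00491), with 0.65 without intact replicate 6 and knockout replicate 4, 0.68 over intact, 0.69 over knockout, 0.64 over the first 6 columns and 0.88 over the last 6. It went with astrocyte markers at r = 0.74 (permutation p = 0.00545, adjusted p = 0.0777, rho 0.71 with permutation p = 0.0127), with 0.75 without intact replicate 4 and knockout replicate 4, 0.83 over intact, 0.56 over knockout, 0.61 over the first 6 columns and 0.92 over the last 6. Hapln2 and progenitor markers had r = -0.73 (permutation p = 0.00846, adjusted p = 0.0846). This became -0.22 without intact replicates 4 and 6, and was -0.95 over intact and 0.13 over knockout arrays. With mature oligodendrocyte markers Hapln2 had r = 0.59 (permutation p = 0.0423, adjusted p = 0.148), and 0.30 without intact replicate 6 and knockout replicate 4. Hapln4 and progenitor markers had r = -0.75 (permutation p = 0.00583, adjusted p = 0.0777, rho -0.35 with permutation p = 0.268). It became -0.23 without intact replicates 4 and 6, so this relation rests on those arrays, and it was -0.81 over intact and -0.02 over knockout arrays, and 0.03 and -0.81 over the first and last 6 columns.

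**Figure D4:**
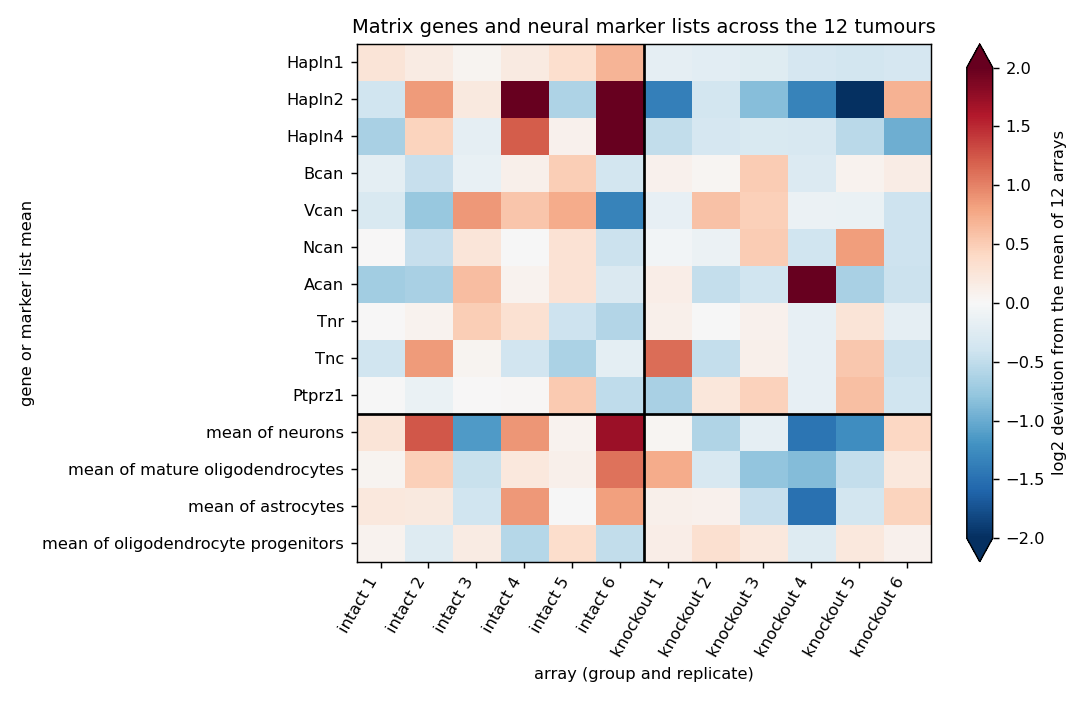
Log2 deviation of each of the 10 genes and of 4 marker list means from its mean over 12 arrays, with arrays as columns, intact left and knockout right of the vertical line, and colours that saturate at 2 in either direction. Intact replicates 4 and 6 are high for Hapln2 and Hapln4, and intact replicates 2, 4 and 6 for neuron markers (1.25, 0.88 and 1.72). Knockout replicate 4 is high for Acan and low for neuron and astrocyte markers.

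The genes with the array pattern most like each member, of 13621 compared by Pearson's r over 12 arrays and given as a description, were as follows. For Hapln1 they were the lysozyme-like gene Lyzl4 (0.93), which is itself called lower (difference -2.88, SE 0.18, limma adjusted p = 4.34e-06), and the neuronal calcium-binding gene Necab1 (0.93). For Hapln2 they were the integrin gene Itgb4 and the mitochondrial assembly gene Ttc19 (both 0.95). For Hapln4 they were Agmat (0.95) and the glutamate receptor gene Grm8 (0.94). The lectican Vcan was followed by Gpr137c (0.96) and the lipid transporter gene Mfsd2a (0.94), Ncan by Caskin2 and Atxn1l (both 0.93), Acan by Adgrv1 and Gnl2 (0.90 and 0.90), and Bcan by Ttll3 (0.89) and ceruloplasmin, Cp (0.86). Closest to Ptprz1 were the kinase gene Prkg2 (0.88) and Yeats4 (0.86), to Tnc Fancd2os (0.85) and Trim66 (0.82), and to Tnr Pde3a and Pawr (both 0.82). By rank the likeness was less even, with rho from 0.50 for Hapln4 and Agmat to 0.97 for Hapln2 and Ttc19. It was 0.55 for Acan and Adgrv1 and 0.63 for Tnc and Fancd2os.

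The wider matrix pathway was listed as 84 genes that make, sulphate, bind or cut this matrix, of which 81 were on the array and 72 were measured. By limma 0 of 72 passed in either direction. Differences were above 0 for 37 and below 0 for 35, with a median of 0.01. At an unadjusted p below 0.05, 5 of 72 were higher and 3 lower, beside 6.22% and 5.72% of all genes. Among the 5 is Gpc4, which was kept only through its knockout arrays, where it is high. The count is therefore a description, and nothing is read from its share. The values of these genes follow by role, each from its brightest probe.

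Hapln3, the remaining link protein, was at 0.06 (SE 0.37). Of the hyaluronan synthases, Has2 alone was measured, at 0.20 (SE 0.30), and of 5 hyaluronan-degrading genes 4 were below 0, with the widest at Hyal1 (-0.37, SE 0.26). The lectican-cutting proteases were split, with 4 of 8 on either side of 0. Among them Mmp9, a gelatinase of inflammatory cells, was at -0.86 (SE 0.33, adjusted p = 0.340), and Mmp2 and the membrane-bound Mmp14 that activates it were at 0.95 (SE 0.51) and 0.65 (SE 0.33). On their brightest probes the 4 measured Timp inhibitor genes lay between -0.25 and -0.11, but the probes of Timp3 disagree: ILMN_2614759, detected on 4 of 6 intact and 6 of 6 knockout arrays, was at 0.89 (SE 0.28, adjusted p over all probes = 0.215).

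Chondroitin chain genes held the widest difference of the pathway. B3galt6, which adds a galactose of the linker between core protein and chain, averaged 8.71 ± 0.15 log2 units over knockout arrays against 6.90 ± 1.64 over intact arrays (SD, n = 6 each) and differed by 1.81 (SE 0.58, limma adjusted p = 0.250). Intact replicates 1 and 2, at 9.10 and 8.91, read like the knockout arrays (8.48 to 8.91), while the other 4 intact arrays read 5.59 to 6.17. With the number runs as a block the difference was -0.19. In the run that this fit compares, the intact arrays are replicates 1 and 2. The other runs hold 1 group each, so run and genotype cannot be told apart for the 4 intact arrays that read low. Xylt2, which starts the chain, was at -0.45 (SE 0.20, adjusted p = 0.395).

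Of the sulphotransferases 6 of 7 were above 0, with Chst3, which makes chondroitin 6-sulphate, at 0.70 (SE 0.31, adjusted p = 0.405) and 0.66 on its other probe, and Chst12 at 0.47 (SE 0.20, adjusted p = 0.376). Of 9 receptors of lecticans and tenascins 6 were below 0, with the Nogo receptor relative Rtn4rl1 at -0.86 (SE 0.30, adjusted p = 0.292). Itga9, an integrin subunit of a tenascin-C receptor, was at -0.10 (SE 0.34) on its brightest probe (ILMN_1242427) and at -0.44 (SE 0.34) on another (ILMN_2580554). Its remaining probe (ILMN_2749529), named here after its values were seen, passed the test over all probes (difference -1.66, SE 0.23, limma adjusted p = 0.039). That probe ran from 6.07 to 7.30 log2 units on intact arrays and from 4.52 to 5.32 on knockout arrays, without overlap, and was detected on 6 of 6 and 3 of 6 arrays. The probes of Itga9 thus disagree, and the adjusted p ran from 0.022 to 0.943 over other settings. Ptn (pleiotrophin), a ligand of Ptprz1, was at 0.33 (SE 0.18). Among other proteoglycans 12 of 15 were above 0, with the progenitor proteoglycan Cspg4 (NG2) at 0.71 (SE 0.28, adjusted p = 0.340). The glypican Gpc4 was detected on 0 of 6 intact and 3 of 6 knockout arrays, with a fitted difference of 0.37 (SE 0.17, adjusted p = 0.414). This gene was thus kept through knockout arrays alone, and nothing is read from its fit. With intact arrays set at no less than their dimmest detected probe, its knockout mean was 1.12-fold higher. Undetected knockout arrays enter that value as measured, so it is no strict minimum. Of the genes of net-bearing interneurons 4 of 5 were below 0, with Pvalb at -1.25 (SE 0.80, adjusted p = 0.575).

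**Figure D5:**
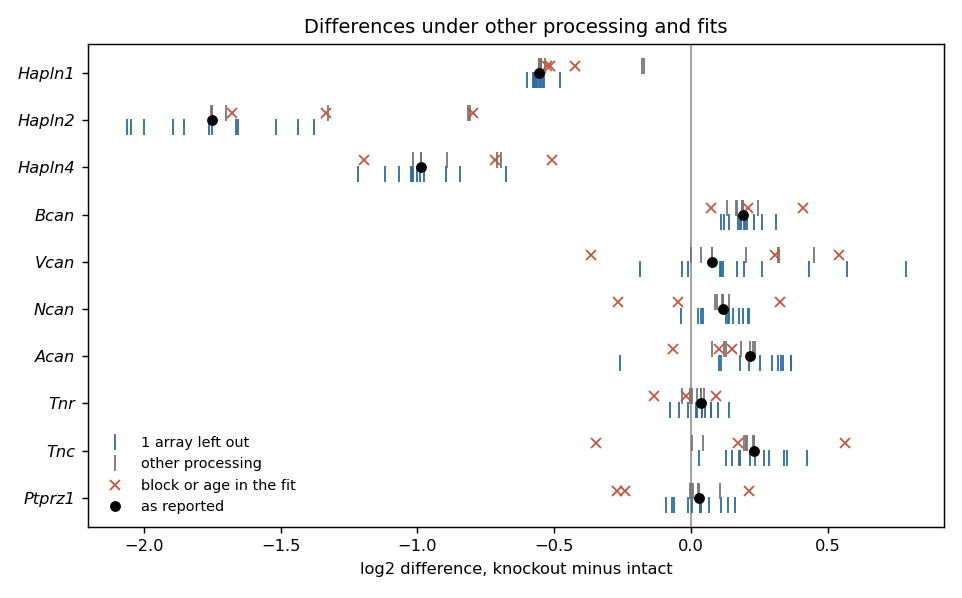
Log2 difference, knockout minus intact, of each of the 10 genes as reported (black points) and under other processing (grey ticks), with 1 array left out (blue ticks) and with a block or age in the fit (red crosses). The 3 link proteins stay below 0 and Bcan above 0 under each, while Vcan, Ncan, Acan, Tnr, Tnc and Ptprz1 fall on both sides of 0.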

How the data were processed

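RNA of mouse brain gliomas, 6 per group, was hybridised to 12 Illumina bead arrays. Per the labels' protocols, total RNA from tumours kept 4 h in RNAlater was extracted with Trizol and a column clean-up, amplified and labelled with biotin. Per the file headers, the authors deposited an intensity and its detection p-value at 45135 probes per array, on a linear scale and not normalized between arrays. The authors also deposited a value table of 45134 probes, linear intensities that were not centred (column medians 145.2 to 150.2) and whose normalization no source used here names. It agreed in rank with the signals (lowest rank correlation over arrays 0.99995) and served as an alternative. The array reader and its software were not given in sources used here. The number of columns of other samples was 0.

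Signals were processed with neqc in limma 3.58.1 (R 4.3.3): background correction from the detection p-values, an offset of 16, which draws folds of dim probes toward 1, quantile normalization and log2. Probes with detection p below 0.05 on at least 3 arrays were kept, 28002 in all. Symbols came from the platform annotation, updated through Entrez identifiers against RefSeq GRCm38.p6: 34772 probes had 1 symbol, 18 several and 10345 none. A gene was represented by its brightest kept probe, which chose among several for 5779 of 14155 genes. Levels of different probes are not compared, and the number of arrays limits the precision.

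Groups were compared with lmFit and eBayes (two-sided tests). The p-values were adjusted by Benjamini-Hochberg across all genes or all probes, and the fit was tested on simulated data. Marker list means were compared by exact permutation, and correlations by 100000 permutations (Python 3.11.15, numpy 2.4.6). Nothing in the labels says more of how the samples were taken than 1 sample number each, so p-values measure the spread between these samples. Named genes were all members with their probes, Nr2e1, pathway genes among the 3 of smallest p in each list, and the 2 genes most like each member. The members and the gene lists were chosen with earlier results of these data known. Alternatives were another background correction, normalization, filter, probe rule and input table, array weights, age, column position or number run in the fit, and leaving out each array.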

Additional observations from a re-analysis of the deposited data

Results flagged for a closer look

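Of 44 sets of 6 arrays (22 probes in 2 groups), 5 held an array whose gap to its nearest neighbour was more than 0.625 of the group's range. Chance flags about 1 in 20 such sets. Acan accounts for 2 of them: knockout replicate 4 read 7.49 log2 units on ILMN_2645654, with the next knockout array at 5.14 (gap 0.750 of the range), and 6.6 on ILMN_2639818, with the next at 4.99 (0.662). On Hapln4, knockout replicate 6 was lowest at 6.95, with the next at 7.39 (0.654). For Tnc the flags fell on dim probes: intact replicate 4 was lowest at 4.33 on ILMN_1251943, with the next at 4.64 (0.629), and knockout replicate 1 was highest at 5.94 on ILMN_2485085, with the next at 5.21 (0.835).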

How the results depend on the processing

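Under all 23 alternatives 0 of the 10 members were called in either direction, as were 0 member probes under 22. The adjusted p of Hapln1 ran from 0.095 to 0.999, of Hapln2 from 0.176 to 0.999 and of Hapln4 from 0.137 to 0.999. Their differences kept their sign wherever they had a value, from -0.60 to -0.17, -2.06 to -0.80 and -1.22 to -0.51, and Bcan kept its own, from 0.07 to 0.41. Hapln1, Hapln2 and Acan have no value when detection is required on all 12 arrays. The count of all genes called ranged from 0 to 88 higher and from 0 to 15 lower, both highest without intact replicate 1.

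The members' median of 0.06 became -0.19 with the column block. That block also turned Vcan (-0.37), Ncan (-0.047), Acan (-0.065), Tnr (-0.13) and Ptprz1 (-0.24). Median scaling turned Vcan (-0.00099), Tnr (-0.033), Ptprz1 (-0.0047) and Hapln3 (-0.0060), and the authors' value table turned Tnr (-0.0030). Age as a covariate turned Ncan (-0.27), Ptprz1 (-0.27), Ptn (-0.019) and Has2 (-0.026). The number runs as a block turned Tnr (-0.018), Tnc (-0.35), B3galt6 (-0.19), Mmp14 (-0.022) and Hapln3 (-0.25), and array weights turned Hapln3 (-0.17). With 1 array left out the ranges that crossed 0 were -0.19 to 0.78 for Vcan (the highest from another probe, below), -0.036 to 0.21 for Ncan, -0.26 to 0.37 for Acan, -0.078 to 0.14 for Tnr, -0.090 to 0.16 for Ptprz1 and -0.21 to 0.26 for Hapln3. For Vcan the brightest probe became ILMN_2669627 without intact replicate 1, 2 or 5, without background correction and with the authors' value table. Held to ILMN_2865704, Vcan ran from -0.19 to 0.26 with 1 array left out, and was turned without intact replicate 2 (-0.067) or 6, without knockout replicate 2 or 3, without background correction (-0.0017) and with the authors' value table (-0.0052). The arrays that turned the others were for Acan knockout replicate 4, for Ncan knockout replicate 5, for Tnr intact replicates 5 and 6 and knockout replicate 5, for Ptprz1 intact replicate 6 and knockout replicates 2, 3 and 5, and for Hapln3 intact replicate 6 and knockout replicates 2 and 4. With 1 array left out, ranges that did not cross 0 but moved by over 1.5 times were 0.11 to 0.31 for Bcan (without knockout replicate 3 and intact replicate 5), 0.031 to 0.43 for Tnc (without knockout replicate 1 and intact replicate 2), -1.75 to -0.81 for Pvalb (lowest size without intact replicate 6), 0.038 to 0.45 for Has2 (without knockout replicate 1 and intact replicate 5) and -0.55 to -0.22 for Hyal1 (without intact replicates 1 and 6). With the column block Pvalb was at -0.42. Hapln2 was at -1.38 without intact replicate 6, Hapln4 at -0.68, and Cspg4 was at 0.16 with the column block. The cause was not tested for any of these.

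Counts of member pairs past adjustment, 0 as reported, were 3 with median scaling, 1 when a gene's probes were averaged and 0 to 1 with 1 array left out. Counts of marker relations, also 0, were 6 without background correction, 7 with the authors' value table, 8 when the probes of a gene were averaged and 0 to 6 with 1 array left out (6 without knockout replicate 4). The Itga9 probe kept its sign under all 21 alternatives that gave it a value, from -1.81 to -0.53, and its call under 5. Signal near background limits Hapln1, Acan and the dim Tnc and Bcan probes. No paired analysis was possible because the labels give the groups no shared replicate numbers.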

Other observations

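A further probe of the brain proteoglycan gene Cspg5, singled out after its values were seen, had the widest difference among all measured probes of the listed matrix genes. ILMN_2570160 read 9.06 to 11.03 log2 units on the 6 knockout arrays, 10.004 and 10.17 on intact replicates 1 and 2, and 4.78 to 5.75 on the other 4 intact arrays (difference 3.40, SE 0.88, limma adjusted p over all probes = 0.158). The probe that represents Cspg5 (ILMN_2732634) differed by 0.01. The arrays that read low are the same 4 intact arrays on which the representative probe of B3galt6 read low, and they lie outside the first run of sample numbers, in runs that hold intact arrays only, so run and genotype cannot be told apart there. The second B3galt6 probe (ILMN_2488783) was detected on 1 of 6 intact and 5 of 6 knockout arrays and differed by 1.16 (SE 0.21, adjusted p = 0.131), with intact replicates 1 and 2 at 4.43 and 4.84 and knockout arrays from 4.72 to 5.97.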
